A study of Caenorhabditis elegans with 12 samples.

Results

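The nhr genes encode nuclear hormone receptors, and here they were followed in gonads and whole worms of Caenorhabditis elegans with 1 or 2 X chromosomes. Members were all genes in the count files whose sequence name maps to a symbol made of nhr- and a number. Of 20389 gene rows, 268 were members, and 1 further symbol, nhr-93, had no row. On the X chromosome lay 23 members, and 245 were autosomal: 23 on chromosome I, 15 on II, 8 on III, 33 on IV and 166 on V. RNA came from 4 groups of 3 libraries each: dissected gonads of XO animals, dissected gonads of XX animals, whole XO worms and whole XX worms. Every group, with no unmutated group among them, carried the temperature-sensitive allele fog-1(q253), was kept at 25 °C and was collected as young adults. The series describes the XO animals as males and the XX animals as females. A gonad library was made from at least 200 gonads and a whole worm library from at least 600 hand-picked worms.

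Nuclear hormone receptors are transcription factors with a zinc-finger DNA-binding domain and a second domain that in many receptors binds a small lipophilic ligand. The family is greatly expanded in nematodes, largely from relatives of the vertebrate receptor HNF4, and only a minority of its members have a clear counterpart in insects and vertebrates. The best-known members in the worm control fat metabolism, molting, development and the response to foreign chemicals, mostly in the intestine, epidermis and other somatic tissues. The fog-1 gene is needed for germ cells to become sperm, and in its absence the germ cells of both XO and XX animals become oocytes. The X chromosome is known to be transcribed at low levels in the germline, and in the XX soma its transcription is lowered by dosage compensation.

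The 12 libraries held between 7912618 and 16140259 counts assigned to genes. Levels are given as CPM, counts scaled to library size. Transcripts of fog-1 were at 592.9 to 626 CPM in XO gonads, 38.5 to 47.1 in XX gonads, 299 to 323 in XO worms and 28.1 to 30.3 in XX worms; a level cannot check a point allele. XX gonad replicate 1 stood apart from the other XX gonad libraries. Over the 60 members with a mean of at least 1 CPM in XX gonads its median deviation from them was -0.16 on the log2 scale, and results that rest on it are given with and without it. The labels do not say that replicates were separate cultures, so p-values measure only the spread between these libraries. Fewer cells of a type and less RNA per cell cannot be told apart in such bulk samples. Germline markers were present in all groups, and their log2 differences between XO and XX gonads, -0.35 to -0.01, did not pass the test in edgeR. The defining male neuron gene lov-1 was at 18 ± 1.01 CPM in XO worms and at 0 in XX worms (SD, n = 3).

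Many nhr genes were low or undetected in these samples, more so in gonads than in whole worms. No count was seen in any library for 26 members, and 105 stayed under 10 counts in every library, while 163 reached 10 counts in at least 1. A mean of at least 1 CPM was reached by 41 members in XO gonads, 60 in XX gonads, 136 in XO worms and 126 in XX worms. Among the 23 X-linked members the numbers were 3, 11, 15 and 15 in the same order. Among the 166 members of chromosome V they were 14, 22, 76 and 69.

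A small set of autosomal receptors made up most nhr RNA in the gonads. Summed over the 245 autosomal members, the level was 653, 639 and 659 CPM in the 3 XO gonad libraries and 713, 819 and 798 CPM in the 3 XX gonad libraries. In whole worms it was 1041, 1072 and 1092 CPM in XO and 1028, 1032 and 1055 CPM in XX libraries. The 5 most abundant autosomal members held 74.9% of that sum in XO gonads and 60.2% in XX gonads, against 36.8% in XO worms and 33.7% in XX worms. The most abundant, nhr-66, which encodes a partner of NHR-49 in lipid gene control, alone held 27.1% in XO gonads and 22.9% in XX gonads.

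The X-linked members behaved differently. Their summed level was 16.9, 15.95 and 16.8 CPM in the XO gonad libraries and 140.4, 142 and 138 CPM in the XX gonad libraries. It was 144, 149 and 161 CPM in XO worms and 186, 192 and 183 CPM in XX worms. The XO gonad libraries lay far below every other library, and the XO and XX worm libraries did not overlap. In XX gonads nhr-71 was the most abundant X-linked member, with 38.5% of the X-linked sum.

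**Figure D1:**
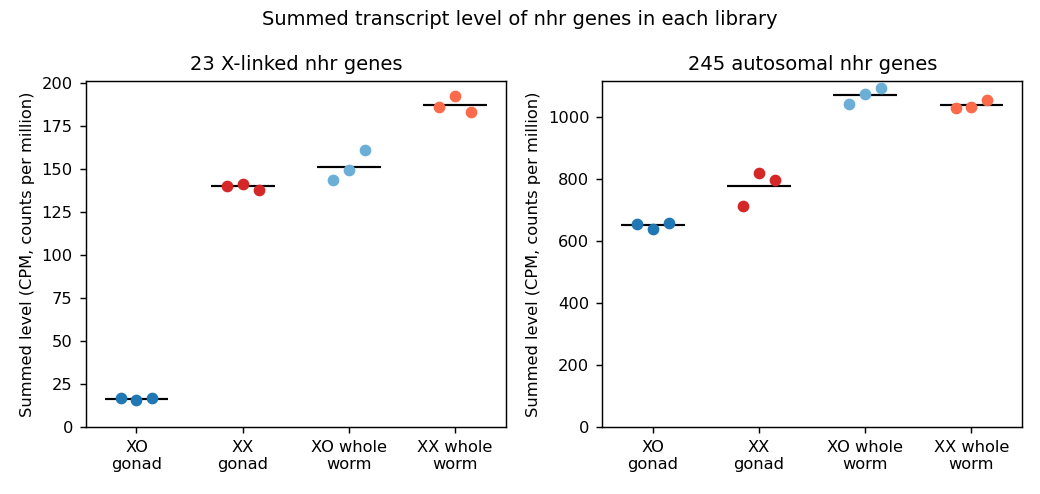
Summed level in CPM (y axis, from 0) of the 23 X-linked (left) and 245 autosomal (right) nhr genes in the 4 groups; each point is 1 library and each line the mean of 3. The 3 XO gonad libraries hold 15.95 to 16.9 CPM from X-linked members, and the 3 XX gonad libraries 138 to 142 CPM.

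Per kilobase of exon (RPKM, which is CPM divided by exonic length), nhr-49 was the highest member in all 4 groups, and the order below it differed. In XO gonads the highest was nhr-49 at 49.04 RPKM, followed by nhr-23 at 38.8, nhr-86 at 36.8, nhr-66 at 36.5, nhr-274 at 27.7 and nhr-20 at 8.76. In XX gonads nhr-49 was at 47.4, nhr-66 at 36.8, nhr-23 at 36.2, nhr-86 at 30.2, nhr-71 at 23.4 and nhr-274 at 22.5 RPKM. In XO worms nhr-49 was at 43.5, nhr-86 at 24.8, nhr-23 at 23.1, nhr-66 at 22.7, nhr-88 at 21.5 and nhr-274 at 18.8 RPKM. In XX worms nhr-49 was at 42.2, nhr-66 at 23.7, nhr-23 at 23.3, nhr-86 at 19.5, nhr-114 at 19 and nhr-46 at 18.03 RPKM. In XX gonads nhr-66 and nhr-23 differed by less than the spread of the nhr-66 libraries, whose SD was 24.4 CPM around 178 CPM.

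The 5 autosomal receptors highest in gonads did not pass the test between XO and XX gonads. NHR-49, an HNF4-like regulator of fat burning and desaturation, had transcripts at 107, 97.3 and 109.7 CPM in XO gonads and at 89.1, 108 and 107 CPM in XX gonads. The groups overlapped, with a log2 fold change of 0.07 (SE 0.12, adjusted p = 0.656). Transcripts of nhr-66 were at 187, 164 and 177 CPM in XO gonads and at 150.1, 196 and 187 CPM in XX gonads, and these groups overlapped too (0.01, SE 0.13, adjusted p = 0.959). The molting regulator gene nhr-23, which is also needed for making sperm, was at 95.8, 98.5 and 99.5 CPM in XO gonads and 88.0, 99.9 and 86.2 CPM in XX gonads (0.12, SE 0.11, adjusted p = 0.422). XX replicate 2 lay above every XO library.

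For nhr-86 and nhr-274 the test gave another call under other settings. For nhr-86, whose product takes part in pathogen defence, the XO gonad libraries were at 46.6, 54.2 and 55.1 CPM and the XX gonad libraries at 55.7, 36.1 and 36.4 CPM. The high XX value was replicate 1, and without it the log2 difference went from 0.31 (SE 0.20, adjusted p = 0.301) to 0.56 (adjusted p = 0.00291). For nhr-274 the XO gonad libraries were at 59.3, 56.5 and 53.0 CPM and the XX gonad libraries at 48.2, 46.7 and 41.8 CPM, with no overlap. Its log2 difference was 0.33 (SE 0.11, adjusted p = 0.0671), and 0.38 without XX gonad replicate 1 (adjusted p = 0.00915). With all libraries it also passed under DESeq2, with DESeq2's size factors in edgeR, with library size only and with all 12 libraries in the fit (0.30 to 0.35).

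The first comparison asks which receptors differ between gonads of XO and XX animals whose germ cells share the oocyte fate. Of 65 members with enough counts to be tested, 1 rose and 37 fell in XO gonads, and 27 did not pass. The median log2 fold change, XO over XX, was -1.39. Over all 8558 genes tested 8.07% rose and 19.7% fell, with a median of 0.02. A call is an adjusted p under 0.05 in edgeR's quasi-likelihood test. The filter kept genes at 10 counts or more, near 0.721 CPM, in as many libraries as a group holds. Through XX gonads alone entered 23 members, and 2 through XO gonads alone, so their direction was largely set by the filter. Among the 39 members above the filter in both groups, 1 rose and 17 fell (median -0.84), against 5.37% and 15.2% of 7074 genes (median 0.04). Without XX gonad replicate 1, 3 members rose and 45 fell.

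All 10 X-linked members tested fell in XO gonads, with a median log2 fold change of -3.24. Falling was the rule on that chromosome: 81.4% of its 955 tested genes fell, 5.55% rose, and the median was -2.90. The same 10 X-linked calls held when any 1 gonad library was left out, and nhr-45 joined them without XX gonad replicate 1. Above the filter in both groups were 3 X-linked members, nhr-71, nhr-48 and nhr-1, against 523 X-linked genes of which 83.7% fell and 3.25% rose. The other 7 were above it only in XX gonads.

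Transcripts of nhr-71 were at 3.73, 3.62 and 3.51 CPM in XO gonads and at 59.3, 53.2 and 49.3 CPM in XX gonads. Every XX library was far above every XO library, and the log2 fold change was -3.87 (SE 0.13, adjusted p = 2.74e-05). Transcripts of nhr-48, a relative of the receptor genes daf-12 and nhr-8, were at 5.63, 5.71 and 5.23 CPM in XO gonads and at 32.8, 35.2 and 36.2 CPM in XX gonads. The groups were far apart (-2.62, SE 0.11, adjusted p = 3.18e-05). For nhr-1 the XO gonad libraries were at 3.65, 3.44 and 3.51 CPM and the XX gonad libraries at 21.3, 19.96 and 17.6 CPM. That gave -2.45 (SE 0.14, adjusted p = 6.34e-05), again without overlap.

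The widest gap was that of nhr-17, at 0.0761, 0 and 0.132 CPM in XO gonads and at 6.14, 7.14 and 6.89 CPM in XX gonads. The gene overlaps nlp-76 on the same strand. The XO gonad libraries held 3 counts in all. The ratio of XX to XO counts, scaled to library size, was 100.2 with an exact 95% counting interval of 33.9 to 489. The fitted log2 fold change was -6.44 (SE 0.47, adjusted p = 0.000157), or -7.28 without XO gonad replicate 3. Transcripts of nhr-28 were at 0.228, 0.43 and 0.199 CPM in XO gonads and at 4.61, 3.85 and 3.74 CPM in XX gonads (-3.74, SE 0.32, adjusted p = 0.00031). The groups did not overlap. Those of nhr-40, a gene needed in embryonic muscle development, were at 0.457, 0.675 and 0.927 CPM in XO gonads and at 5.07, 9.41 and 9.19 CPM in XX gonads. All XX libraries were higher, replicate 1 the least so (-3.47, SE 0.38, adjusted p = 0.00087).

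The remaining X-linked members were at lower levels. In XO gonads nhr-32 was at 0.533, 0.0614 and 0.331 CPM, and in XX gonads at 2.61, 3.10 and 4.77 CPM (-3.49, SE 0.55, adjusted p = 0.00441; -4.10 without XO gonad replicate 1). For nhr-35 the means were 0.443 ± 0.146 CPM in XO and 3.73 ± 0.545 CPM in XX gonads (SD, n = 3), a log2 fold change of -3.0 (SE 0.29). For nhr-91, related to the vertebrate germ cell nuclear factor, they were 0.20 ± 0.123 and 1.25 ± 0.138 CPM (-2.56, SE 0.45). For nhr-3 they were 0.543 ± 0.060 and 2.08 ± 0.597 CPM (-1.92, SE 0.32). The other 13 X-linked members were not tested in gonads. Among these, nhr-25, an FTZ-F1 class gene that acts in epidermal and gonad development, was at 0.321 ± 0.119 CPM in XO and 0.871 ± 0.171 CPM in XX gonads. The iron and immunity regulator gene nhr-14 was at 0.314 ± 0.0148 and 0.244 ± 0.22 CPM, and nhr-137 had 1 count in XO gonads and 0 in XX gonads. No count was seen in any library for nhr-26 and nhr-27.

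**Figure D2:**
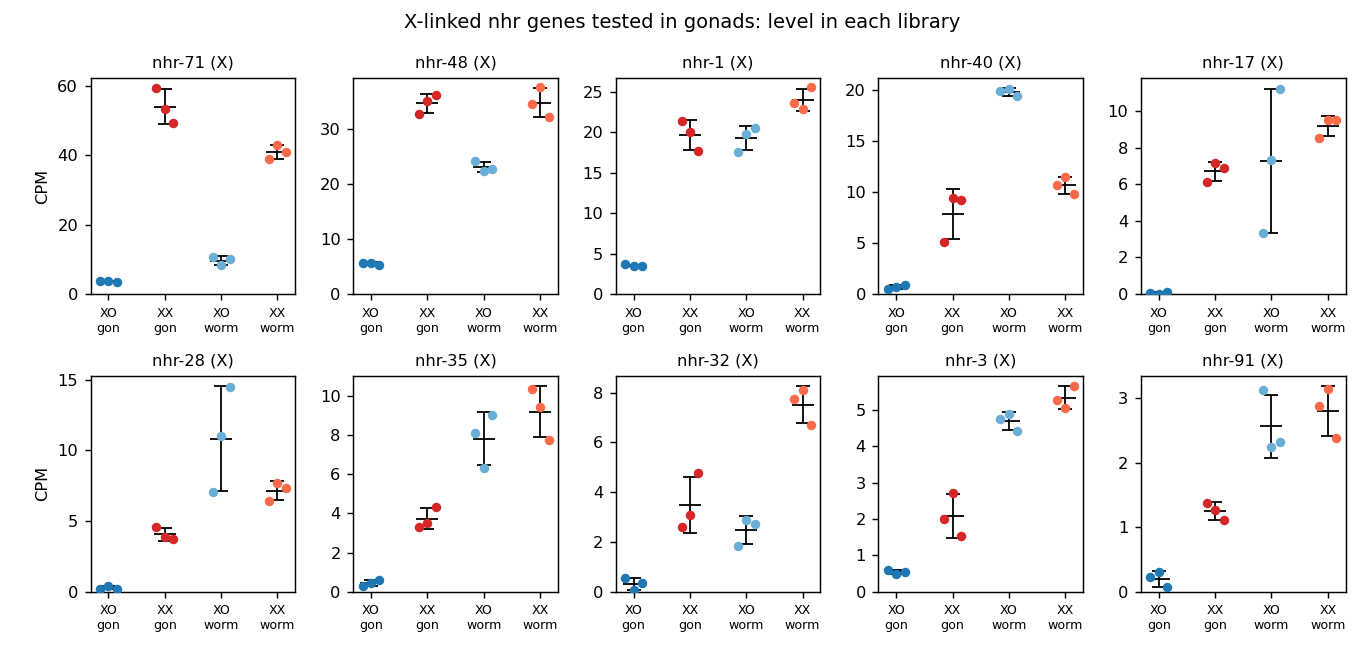
Level in CPM (y axes, each from 0) of the 10 X-linked nhr genes tested in gonads; points are libraries, the wide tick is the mean and bars are ± 1 SD (n = 3). In all 10 panels the XO gonad libraries lie below the XX gonad libraries, and for nhr-40 the XO whole worm libraries lie above the XX ones.

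Autosomal members also leaned to lower levels in XO gonads. Of 55 tested 1 rose, 27 fell and 27 did not pass, with a median of -1.05, against 8.41% risen and 11.9% fallen of 7480 autosomal genes (median 0.08). Through XX gonads alone entered 16 of the 55, of which 13 fell. Of the 36 above the filter in both groups 1 rose and 14 fell (median -0.73), against 5.55% and 9.74% of 6466 autosomal genes (median 0.07). Without XX gonad replicate 1, 3 autosomal members rose and 34 fell.

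Among abundant autosomal receptors, nhr-46 was at 17.2, 19.3 and 18.4 CPM in XO gonads and at 49.3, 50.8 and 54.6 CPM in XX gonads. The groups were well apart, with a log2 fold change of -1.47 (SE 0.10, adjusted p = 0.000137). Transcripts of nhr-20 were at 14.2, 13.8 and 13.5 CPM in XO gonads and at 26.9, 33.1 and 27.3 CPM in XX gonads (-1.05, SE 0.13, adjusted p = 0.0016). For nhr-13, which encodes a partner of NHR-49 in desaturase control, XO gonads were at 10.4, 13.3 and 11.3 CPM and XX gonads at 18.8, 17.6 and 18.2 CPM. These did not overlap (-0.61, SE 0.14, adjusted p = 0.0179), but removing XO gonad library 1 or 3, or XX gonad library 2, ended the call (-0.55 to -0.63).

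Some autosomal members entered the test only through their level in XX gonads, so a fall is largely set by the filter and is given as a description. Transcripts of nhr-76, whose product acts in serotonin-driven fat loss, were at 0.533, 0.184 and 0.662 CPM in XO gonads and at 4.07, 4.80 and 4.68 CPM in XX gonads (-3.27, SE 0.38, adjusted p = 0.00121). Those of nhr-161 were at 0.158 ± 0.0383 CPM in XO and 2.18 ± 0.777 CPM in XX gonads (-3.71, SE 0.47). Those of nhr-135 were at 0.134 ± 0.114 and 1.10 ± 0.23 CPM (-2.93, SE 0.52; -3.84 without XO gonad replicate 3), and those of nhr-21 at 0.433 ± 0.211 and 3.08 ± 1.10 CPM (-2.80, SE 0.47). In each of these genes every XX library was above every XO library.

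The single riser was nhr-6 on chromosome III, the worm member of the NR4A class, which is needed to form the spermatheca. It was at 3.12, 3.93 and 3.64 CPM in XO gonads and at 0.844, 1.14 and 1.28 CPM in XX gonads. Every XO library was higher, with a log2 fold change of 1.74 (SE 0.24, adjusted p = 0.00236), and the call held when any 1 gonad library was left out. The gene overlaps another coding gene, C48D5.3, on the other strand, and the strand setting of the counting is not given in the sources used here.

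The early embryonic gene nhr-2 and nhr-12 did not pass in gonads with all libraries. Transcripts of nhr-2 were at 13.4, 14.97 and 15.3 CPM in XO gonads and at 16.9, 30.5 and 29.7 CPM in XX gonads, XX replicate 1 being the low one. The log2 difference was -0.80 (SE 0.24, adjusted p = 0.056), and -1.01 without that library (adjusted p = 0.000138). For nhr-12 the XO gonads were at 4.26, 3.44 and 4.37 CPM and the XX gonads at 4.76, 12.4 and 15.1 CPM. Its difference of -1.39 (SE 0.42, adjusted p = 0.0565) was -1.73 without XX replicate 1 (adjusted p = 5.17e-05).

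**Figure D3:**
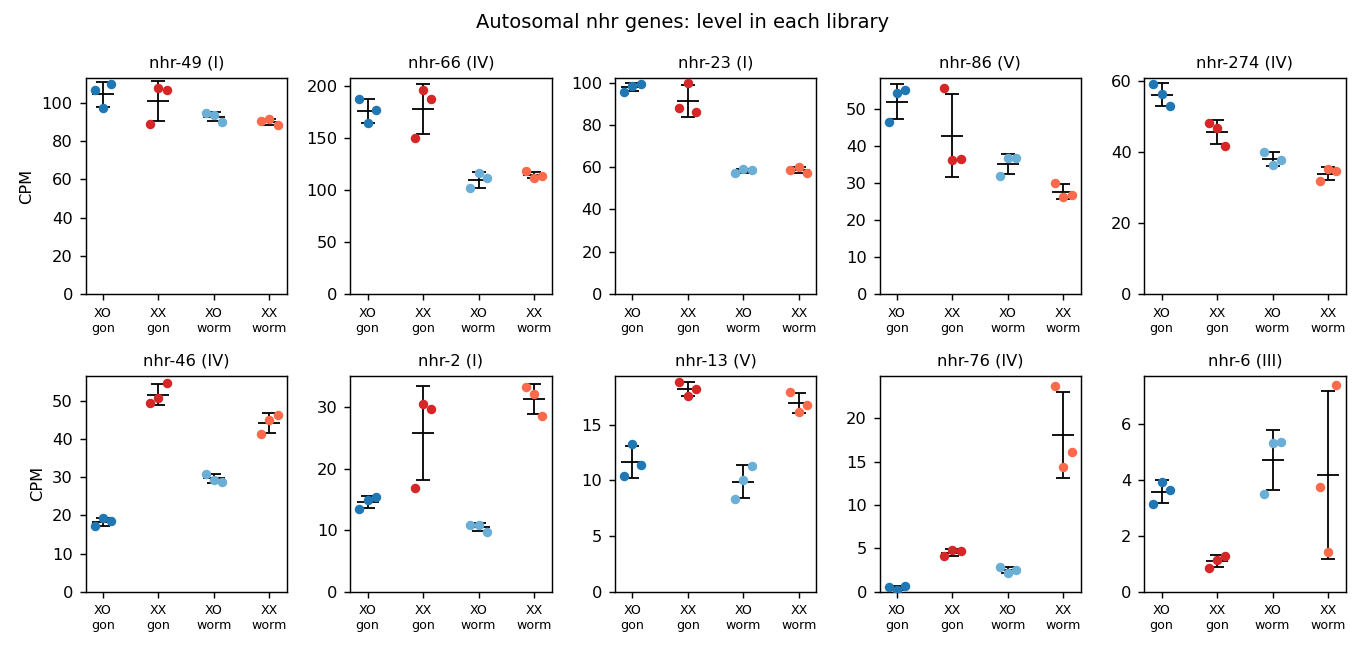
Level in CPM (y axes, each from 0) of 10 autosomal nhr genes in the 4 groups; points are libraries, the wide tick is the mean and bars are ± 1 SD (n = 3). The 5 upper panels show genes that did not pass between XO and XX gonads with all libraries; below them nhr-46, nhr-13 and nhr-76 are lower and nhr-6 is higher in XO gonads.

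Markers of other tissues differed between the gonad groups. Over all genes tested 8.07% rose and 19.7% fell. Of the 7 genes of the gonadal sheath and somatic gonad list, 6 were tested and 4 fell in XO gonads, the summed level being 23.4 to 33.3 CPM in XO and 117 to 144 CPM in XX libraries. Of the fallers lim-7, ceh-18 and lag-2 entered through XX gonads alone, so their fall was largely set by the filter. The remaining faller, inx-8, at 1.5 CPM in XO and 101 CPM in XX gonads, held most of the difference in sums. Neither inx-9 nor fos-1 passed. Of 6 muscle genes, 5 fell, with sums of 118 to 180 CPM in XO and 368 to 463 CPM in XX libraries. Intestine genes went the other way, with 4 of 5 tested higher in XO gonads and sums of 125 to 172 CPM against 31.9 to 64.8 CPM. All 3 cuticle genes tested were higher in XO gonads, and of 5 neuron genes tested 2 rose and 1 fell. Among the genes higher in XO gonads, ifb-2, sqt-3, unc-31 and ida-1 were under the filter in at least 1 XX gonad library. The defining intestine gene elt-2 was at 0.218 ± 0.13 CPM in XO and 0.0211 ± 0.0365 CPM in XX gonads. Without XX gonad replicate 1, 6 intestine genes were tested and all 6 were higher in XO gonads. The part of these tissues in the nhr differences was not tested.

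The same comparison in whole worms gave calls in both directions. Of 142 members tested 34 rose and 24 fell in XO worms and 84 did not pass, with a median log2 fold change of 0.13. Over all 12259 genes tested 29.2% rose and 24.2% fell, with a median of 0.02. With library size as the only scaling, an alternative added after seeing the data that moved the median of all genes by 0.24, 56 members rose and 17 fell. DESeq2 called 20 higher and 20 lower. Of 15 X-linked members 4 rose and 5 fell, against 29.8% and 42.1% of 1716 X-linked genes. Of 127 autosomal members 30 rose and 19 fell, against 29.2% and 21.3% of 10372 autosomal genes. Above the filter in both groups were 120 members, of which 27 rose and 22 fell (23.9% and 25% of 10154 genes). Through XO worms alone entered 14 members, of which 7 rose, against 81.4% of 1419 genes. Through XX worms alone entered 3, of which 2 fell, against 84.3% of 504 genes. The direction of these members was largely set by the filter. The filter was near 0.768 CPM.

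Among the genes higher in XO worms, nhr-113 had no count in XX worms. It was at 1.51, 1.85 and 1.33 CPM in XO worms and had 0 counts in the 3 XX worm libraries, against 55 counts in XO worms. With a floor of 3 counts over the XX group it was at least 20.4-fold higher in XO worms (adjusted p = 1.79e-05). Transcripts of nhr-74 were at 4.40, 3.29 and 2.95 CPM in XO worms and at 0.559, 0.828 and 0.478 CPM in XX worms (log2 fold change 2.40, SE 0.33, adjusted p = 3.11e-05). Both genes lie on chromosome I and no XX library reached an XO library. They met the filter only through XO worms, so their rise was largely set by the filter and is given as a description.

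The hypoxia-responsive gene nhr-57 was at 3.71, 5.30 and 4.56 CPM in XO worms and at 1.36, 1.99 and 2.32 CPM in XX worms (1.17, SE 0.25, adjusted p = 0.00123). For nhr-11 the XO worms were at 4.17, 11.2 and 9.40 CPM and the XX worms at 3.35, 3.64 and 3.48 CPM (1.19, SE 0.30, adjusted p = 0.00697). XO replicate 1 was close to the XX libraries there. The other named risers were nhr-136 (1.41, SE 0.40), nhr-212 (1.06, SE 0.23), nhr-58 (1.00, SE 0.26), nhr-180 (0.94, SE 0.27), nhr-50 (1.00, SE 0.36) and nhr-211 (0.92, SE 0.35). The calls of nhr-50 and nhr-211 were each lost when some single libraries were left out and with DESeq2 (adjusted p = 0.0802 and 0.156).

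Of the X-linked risers, nhr-40 was at 19.9, 20.1 and 19.4 CPM in XO worms and at 10.7, 11.5 and 9.83 CPM in XX worms. The libraries did not overlap, and its log2 fold change of 0.81 (SE 0.12, adjusted p = 5.28e-05) is opposite to that in gonads. Transcripts of nhr-14 were at 15.98, 18.5 and 21.3 CPM in XO worms and at 14.3, 8.94 and 11.2 CPM in XX worms (0.62, SE 0.16, adjusted p = 0.00628). Those of nhr-120 were at 5.69 ± 0.711 CPM in XO and 3.07 ± 1.04 CPM in XX worms (0.80, SE 0.25, adjusted p = 0.0159; 0.52 and adjusted p = 0.0745 without XX worm replicate 3). The fourth, nhr-28, was at 7.06, 11.0 and 14.5 CPM in XO and 6.38, 7.70 and 7.37 CPM in XX worms, with overlap (0.54, SE 0.21, adjusted p = 0.0471). Its call was lost when any 1 of 5 libraries was left out (0.27 to 0.59) and with DESeq2.

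The largest falls in XO worms were those of nhr-76 and nhr-71. Transcripts of nhr-76 were at 2.90, 2.17 and 2.46 CPM in XO worms and at 23.7, 14.4 and 16.2 CPM in XX worms, a log2 fold change of -2.96 (SE 0.23, adjusted p = 2.32e-07). Those of nhr-71 were at 10.7, 8.34 and 9.96 CPM in XO worms and at 38.9, 42.9 and 40.8 CPM in XX worms (-2.18, SE 0.11, adjusted p = 1.18e-09). In both genes all XX libraries lay above all XO libraries by a wide margin.

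Other X-linked fallers were nhr-137, at 0.811, 2.33 and 2.46 CPM in XO and 6.78, 5.47 and 6.55 CPM in XX worms (-1.76, SE 0.27, adjusted p = 0.000112), and nhr-32 (-1.64, SE 0.20), nhr-48 (-0.68, SE 0.09) and nhr-1 (-0.39, SE 0.10). With library size as the only scaling nhr-1 did not pass (-0.16). The call of nhr-137 came from a gene with 0 counts in XX gonads.

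Autosomal fallers included the early embryonic gene nhr-2. It was at 10.8, 10.9 and 9.68 CPM in XO worms and at 33.3, 32.1 and 28.5 CPM in XX worms, with no overlap (-1.67, SE 0.11, adjusted p = 2.97e-08). Transcripts of nhr-114, whose product protects the germline from a diet-dependent loss of fertility, were at 9.84, 12.2 and 18.2 CPM in XO worms and at 36.3, 22.4 and 28.1 CPM in XX worms. Every XX library was higher, though both groups were scattered (-1.17, SE 0.26, adjusted p = 0.00691). In gonads nhr-114 was at 1.18 ± 0.173 CPM in XO and 1.09 ± 0.221 CPM in XX libraries and did not pass (0.15, SE 0.27). The other named fallers were nhr-210 (-1.36, SE 0.34), nhr-55 (-1.30, SE 0.28), nhr-12 (-1.25, SE 0.16) and nhr-243 (-0.87, SE 0.21). The fall of nhr-210 came from 57 counts in XX worms against 21 in XO worms, where it was not above the filter in every library.

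Marker genes of several tissues also differed between XO and XX worms. Over all 12259 genes tested 29.2% rose and 24.2% fell. Of 9 germline genes 7 fell in XO worms and 2 did not pass, and the median log2 fold change of the 9 was small, -0.21. Of 6 muscle genes 4 rose, 5 of 6 neuron genes rose and 1 fell, and all 5 male genes rose. Of 8 intestine genes 2 rose and 3 fell. Of 7 genes of the gonadal sheath and somatic gonad 1 rose and 4 fell, with sums of 69.5 to 76.5 CPM in XO and 121 to 134 CPM in XX libraries. The lower sum in XO worms rests on inx-8, at 1.92 CPM in XO and 68.2 CPM in XX worms. The riser, inx-9, was at 33.5 CPM in XO and 17 CPM in XX worms. The part of these differences in the nhr calls was not tested.

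Across both tissues, 14 of the 65 members tested in both, 21.5%, fell in XO gonads and in XO worms, against 12% of 8471 genes tested in both. These were the X-linked nhr-71, nhr-48, nhr-1 and nhr-32 and the autosomal nhr-76, nhr-46, nhr-21, nhr-4, nhr-78, nhr-20, nhr-22, nhr-13, nhr-243 and nhr-256. Of the 37 members that fell in XO gonads, 37.8% also fell in XO worms, against 61.3% of the 1662 genes that fell in XO gonads. The worm calls of nhr-21 and nhr-4 each ended when any 1 of 4 libraries was left out and with DESeq2, and the gonad call of nhr-78 ended without XO gonad replicate 2. A further 6 members, 9.23% against 2.8% of all genes, fell in XO gonads and rose in XO worms: nhr-28, nhr-40, nhr-97, nhr-88, nhr-131 and nhr-57. Of these nhr-28, nhr-40 and nhr-57 entered the gonad test only through XX gonads, so their fall there was largely set by the filter. Through XX gonads alone entered 23 of 65 members but 740 of 8558 genes. The shares over both tissues were not split by the filter, so members and all genes are not compared on like terms. The gonad and worm comparisons share no libraries.

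**Figure D4:**
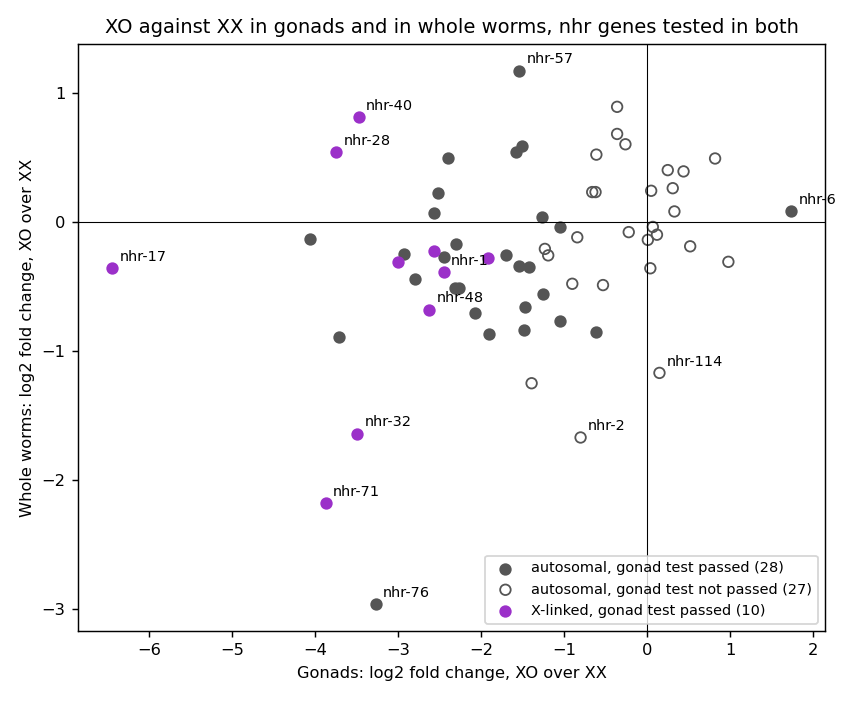
Log2 fold change, XO over XX, in gonads (x axis) and whole worms (y axis) of the 65 nhr genes tested in both; filled points passed the gonad test and purple points are X-linked. All 10 X-linked genes lie left of 0, with nhr-40 (-3.47 and 0.81) and nhr-28 (-3.74 and 0.54) above the horizontal line, and nhr-6 (1.74) is the filled point on the right.

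Whether the XO and XX difference itself differed between tissues was tested as an interaction over all 12 libraries, coded as the gonad difference minus the whole worm difference. Of 144 members tested 41 were lower and 1 was higher, against 14.1% and 2.96% of 12528 genes. Of 16 X-linked members 11 were lower and 5 did not pass, against 40.7% lower and 3.46% higher of 1763 X-linked genes. Of 128 autosomal members 30 were lower and 1 higher, against 9.73% and 2.85% of 10586 autosomal genes. Without XX gonad replicate 1, 44 members were lower and 3 higher, and without XX gonad replicate 2, 29 were lower. The fit over all 12 libraries shares 1 estimate of spread. Its common coefficient of variation was 0.194, against 0.269 for gonads and 0.0845 for whole worms fitted alone. The shared value lay below that of the gonad libraries, so SEs and p-values from this fit may be too small where gonads vary most.

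By smallest p the leading members were nhr-48 (-2.06, SE 0.14), nhr-1 (-2.16, SE 0.17), nhr-40 (-4.39, SE 0.36), nhr-97 (-2.23, SE 0.19), nhr-71 (-1.81, SE 0.17) and nhr-28 (-4.38, SE 0.45). Of these nhr-97 is autosomal. It was at 3.12, 4.11 and 4.64 CPM in XO gonads and at 11.8, 10.9 and 13.5 CPM in XX gonads (-1.58, SE 0.19, adjusted p = 0.00149). In whole worms the order was turned, with 69.7, 62.7 and 59.9 CPM in XO and 39.98, 40.7 and 43.7 CPM in XX libraries (0.54, SE 0.08, adjusted p = 7.42e-05). Neither pair of groups overlapped.

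A like pattern was seen for nhr-88, at 1.90, 2.09 and 1.26 CPM in XO gonads and 6.06, 5.94 and 3.06 CPM in XX gonads (-1.50, SE 0.35, adjusted p = 0.0218). In whole worms it was at 63.7, 66.6 and 72.5 CPM in XO and 34.6, 50.5 and 42.6 CPM in XX libraries (0.59, SE 0.11, adjusted p = 0.00126). The gonad call ended when XO gonad library 1 or 3, or XX gonad library 2, was removed (-1.32 to -1.57), while the interaction was -2.20 (SE 0.35, adjusted p = 0.000622). For nhr-57 the gonad means were 0.289 ± 0.0538 CPM in XO and 0.874 ± 0.125 CPM in XX (-1.54, SE 0.33, adjusted p = 0.0157), a call that ended when XO gonad library 1 or 2, or XX gonad library 2, was removed. For nhr-131 the gonad change was -2.40 (SE 0.42) and the worm change 0.49 (SE 0.19, adjusted p = 0.0456), the latter lost when any 1 of 5 libraries was left out and with DESeq2 (adjusted p = 0.116).

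The 1 member with a higher interaction was nhr-8, which acts in the xenobiotic response and in cholesterol balance. In gonads it was under the filter used, at 0.609, 0.614 and 0.861 CPM in XO and 0.0768, 0.19 and 0.0851 CPM in XX libraries. All XO gonad libraries were higher, and it was called higher in XO gonads with no filter, with a minimum count of 5 and with all 12 libraries in the fit. In worms it was at 7.76, 9.31 and 9.19 CPM in XO and 10.3, 9.52 and 12.3 CPM in XX libraries (-0.37, SE 0.15, adjusted p = 0.0453). The interaction was 2.70 (SE 0.47, adjusted p = 0.00132), and 3.34 without XX gonad replicate 2. The worm call was lost when any 1 of 5 libraries was left out.

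Gonads were then compared with whole worms of the same karyotype; since a whole worm contains its gonad, this shows which receptors are relatively richer inside or outside it. In XX animals 5.56% of 144 members were higher and 77.8% lower in gonads, with a median log2 fold change of -2.42. Over 12528 genes 28.5% were higher and 42.4% lower, with a median of -0.32. Of 16 X-linked members 1 was higher and 11 lower, against 7.66% and 67.4% of X-linked genes. Of 128 autosomal members 7 were higher and 101 lower, against 32.1% and 38.4%. In XO animals 6 members were higher and 128 lower, with a median of -3.68, against 29.6% and 50.3% of all genes. There 15 of the 16 X-linked members were lower, against 88% of X-linked genes, and of the autosomal members 6 were higher and 113 lower, against 34.3% and 44.1%. The members passed a filter near 0.75 CPM over all 4 groups. A mean of 1 CPM was reached by 60 members in XX gonads against 126 in XX worms, and by 41 in XO gonads against 136 in XO worms. For members that entered only through worms a lower level in gonads was largely set by the filter. The shares were not split by the filter, so members and all genes are not compared on like terms. All 9 germline markers were higher in gonads in both karyotypes.

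Members higher in gonads came from the abundant group. Transcripts of nhr-23 were higher in XX gonads by 0.64 (SE 0.08) and in XO gonads by 0.75 (SE 0.08) on the log2 scale, with 57.3 to 60.2 CPM over the 6 worm libraries and 86.2 to 99.9 CPM over the 6 gonad libraries. Those of nhr-66 were higher by 0.64 (SE 0.11) in XX and 0.68 (SE 0.11) in XO gonads. Those of nhr-274 were higher by 0.43 (SE 0.09) and 0.56 (SE 0.09), those of nhr-86 by 0.63 (SE 0.16) and 0.56 (SE 0.16), and those of nhr-181 by 0.72 (SE 0.16) and 0.46 (SE 0.15). The size factors of DESeq2 in edgeR moved the median of all genes by -0.15 in XX and -0.14 in XO animals and left 5 and 3 members higher. Among those lost were nhr-86 and nhr-181 in XO animals. For nhr-49 the difference did not pass in XX (0.17, SE 0.09) or XO animals (0.17, SE 0.09), but it did without XX gonad replicate 1 (0.26 and 0.18).

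The X-linked genes differed between karyotypes here. Relative to whole worms nhr-71 was higher in XX gonads (0.40, SE 0.11, adjusted p = 0.00537) and lower in XO gonads (-1.41, SE 0.13, adjusted p = 6.05e-07). The first call was lost without XX gonad replicate 2 (0.29) and with DESeq2's size factors in edgeR (0.28). For nhr-48 XX gonads and XX worms were level (-0.00, SE 0.10, adjusted p = 0.987), while XO gonads were lower than XO worms by -2.06 (SE 0.11, adjusted p = 3.23e-09). For nhr-1 the differences were -0.29 (SE 0.11) and -2.45 (SE 0.13), the first lost when any 1 of 4 libraries was left out. The X-linked member that did not pass between XO gonads and XO worms was nhr-25 (0.65, SE 0.68, adjusted p = 0.389), with 7 to 36 counts per group.

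Many receptors present in worms were absent from gonads at this depth. In XX gonads 5 named members had 0 counts in all 3 libraries. With a floor of 3 counts over the group they were lower than in XX worms by at least 85.2-fold for nhr-137, 60-fold for nhr-43, 40.7-fold for nhr-120, 40.7-fold for nhr-106 and 29.3-fold for nhr-232. In XO gonads nhr-110, nhr-74, nhr-184 and nhr-92 had 0 counts; nhr-74 was lower than in XO worms by at least 50.8-fold. The NHR-49 partner gene nhr-80 was at 0.227 ± 0.0874 CPM in XO gonads and 0.153 ± 0.0922 CPM in XX gonads, against 13.6 ± 2.18 and 14.3 ± 2.69 CPM in worms. For nhr-5 XO gonads were at 0.0916 ± 0.0807 CPM and XO worms at 14.3 ± 0.541 CPM (-7.17, SE 0.36). Intervals and floors cover counting error only.

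**Figure D5:**
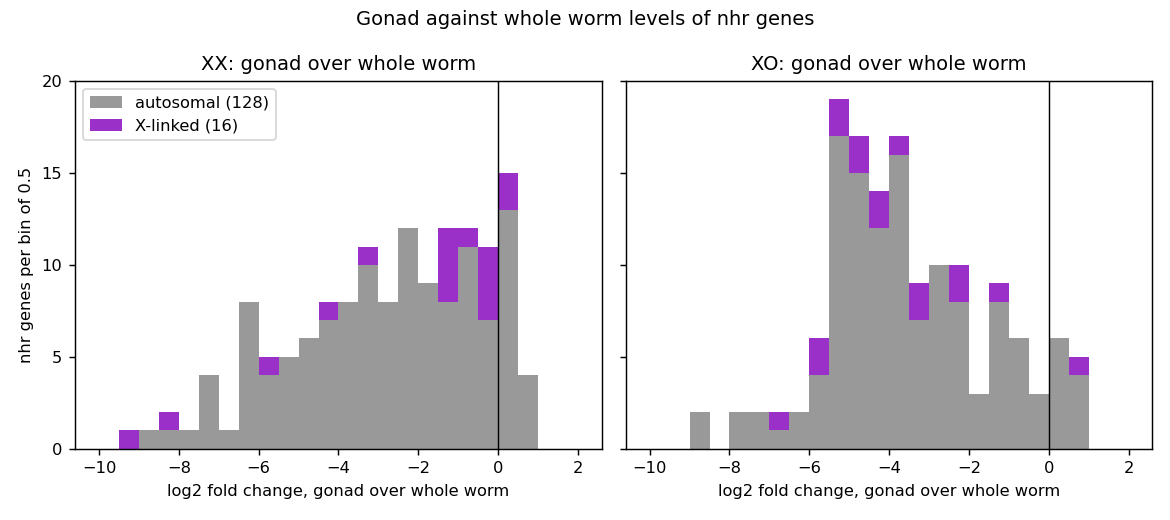
Number of nhr genes (y axis) by log2 fold change, gonad over whole worm, in bins of 0.5 (x axis), in XX (left) and XO animals (right), for 128 autosomal and 16 X-linked genes; the line marks no difference. Most genes lie left of the line, with medians of -2.42 in XX and -3.68 in XO; values of genes with few counts in gonads depend on the fit's prior count.

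The metabolism list holds 11 members. In gonads 7 were tested and 3 fell, nhr-13, nhr-28 and nhr-64, and in whole worms 2 rose (nhr-79 and nhr-28) and 3 fell (nhr-13, nhr-114 and nhr-68). Over all genes tested 19.7% fell in gonads, and 29.2% rose and 24.2% fell in worms. The gonad fall of nhr-28 was largely set by the filter, which it met only through XX gonads. The worm call of nhr-79 (0.59, adjusted p = 0.0296) ended without XO worm replicate 3, XX worm replicate 1 or XX worm replicate 2, with DESeq2 and with all 12 libraries in the fit. The fat regulator gene nhr-64 was at 1.14 ± 0.0818 CPM in XO and 3.13 ± 0.0307 CPM in XX gonads (-1.42, SE 0.19, adjusted p = 0.00211). The propionate shunt activator gene nhr-68 was at 9.49 ± 1.96 CPM in XO and 14.9 ± 2.48 CPM in XX worms (-0.74, SE 0.17, adjusted p = 0.00254). Its partner nhr-10 was level in worms, at 15.9 ± 2.44 and 15.95 ± 1.499 CPM (-0.08, SE 0.13). The dietary restriction gene nhr-62 stayed at or under 4.39 CPM in every library and did not pass in worms (-0.23, SE 0.33).

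Of the 10 members of the molting and development list, 7 were tested in gonads: nhr-6 rose, nhr-40 and nhr-91 fell, and 4 did not pass. In worms 7 were tested, nhr-40 rose and nhr-2 fell. The molting genes nhr-41 and nhr-85 did not pass in either tissue, with log2 differences of 0.52 (SE 0.32) and 0.98 (SE 0.35) in gonads. The tailless-class gene nhr-67 was at 0.182 ± 0.147 CPM in XO and 0.731 ± 0.205 CPM in XX worms and was not tested. Of the 7 members of the stress and xenobiotics list, nhr-48 and nhr-57 fell in gonads and nhr-86 did not pass. In worms nhr-57, nhr-14 and nhr-86 rose, nhr-48 and nhr-8 fell, and nhr-176 and nhr-112 did not pass. The call of nhr-86 in worms (0.26, SE 0.09, adjusted p = 0.0273) was lost when any 1 of 4 libraries was left out and with DESeq2. Among 10 members with a clear class outside nematodes, 1 rose, 2 fell and 3 did not pass in gonads, and 2 fell and 5 did not pass in worms. Over all genes tested 8.07% rose and 19.7% fell in gonads and 24.2% fell in worms. In gonads nhr-40, nhr-91 and nhr-57 entered through XX gonads alone, so their fall there was largely set by the filter.

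Receptors with other names and the genes around the pathway were followed beside the family. The X-linked receptor gene sex-1, which counts X chromosomes in sex determination, was at 6.73 ± 0.161 CPM in XO and 31.9 ± 12.7 CPM in XX gonads (-2.22, SE 0.33, adjusted p = 0.00339). In worms it was at 7.05 ± 1.30 and 51.9 ± 4.80 CPM (-2.94, SE 0.13, adjusted p = 1.96e-10). The dauer and steroid receptor gene daf-12 did not pass in worms (14 ± 1.62 and 11.4 ± 1.11 CPM), and the motor neuron receptor gene unc-55 rose in XO worms (1.70, SE 0.41, adjusted p = 0.00333). Of 6 genes of ligand synthesis, daf-9 fell (-1.88, SE 0.49) and daf-36 rose (0.78, SE 0.20) in XO worms, and ncr-1 and ncr-2, the ones tested in gonads, did not pass there. All 4 coregulator genes, among them mdt-15, which encodes a Mediator subunit that works with NHR-49, did not pass in gonads. XX gonad replicate 1 stood apart for cbp-1, at 53.4 CPM against 353 and 424 CPM in replicates 2 and 3, for din-1, at 11.1 against 82.2 and 121 CPM, and for sir-2.1, at 15.9 against 60.9 and 85.2 CPM. Without it the log2 differences of mdt-15, cbp-1, din-1 and sir-2.1 were 0.09, 0.22, -0.68 and 0.18, against 0.19, 0.70, -0.18 and 0.60 with it, and did not pass either. In worms mdt-15 rose by 0.15 (SE 0.06) and din-1 fell by 0.31.

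Known targets of NHR-49 and NHR-80 differed in direction. In XO worms acs-2, an acyl-CoA synthetase gene of fat burning, was at 147 ± 34.9 CPM against 12.3 ± 4.43 CPM in XX worms (3.49, SE 0.33, adjusted p = 0.000681). The desaturase gene fat-5 (0.98, SE 0.15) and fmo-2 (1.18, SE 0.26) also rose, hacd-1 fell (-2.84, SE 0.24) and fat-6 did not pass. In gonads fat-5 (1.92, SE 0.42) and fat-6 (1.53, SE 0.35) were higher in XO at 4.29 ± 0.268 and 7.58 ± 1.12 CPM, as were the intestine markers above. No counts were seen for fat-7. Neither nhr-49 (-0.04, SE 0.06) nor nhr-80 (-0.17) passed between XO and XX worms; with library size as the only scaling nhr-49 passed as higher (0.19).

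Of 6 listed genes of propionate breakdown, 5 fell in XO worms, where 24.2% of all genes tested fell. Among them acdh-1, hach-1, hphd-1 and alh-8 belong to the shunt that NHR-10 and NHR-68 activate, while pccb-1 and mce-1 do not. The acyl-CoA dehydrogenase gene acdh-1 was at 33.3 ± 16.2 CPM in XO and 202 ± 28.2 CPM in XX worms (-2.73, SE 0.38, adjusted p = 0.00406), and hphd-1 at 29.3 ± 1.89 and 151 ± 22.3 CPM (-2.45, SE 0.11, adjusted p = 1.34e-08). The changes of alh-8 (-0.78), hach-1 (-0.64) and the X-linked pccb-1 (-0.42) were smaller, and mce-1 did not pass. In gonads pccb-1 (-3.76, SE 0.12) and hphd-1 (-1.59, SE 0.25) fell and 4 did not pass. Without XX gonad replicate 1 hach-1 passed as higher (0.22, adjusted p = 0.0348).

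Many nhr genes lie side by side in the genome. In the WBcel235 annotation 137 nhr genes fell into 44 runs of at least 2 neighbouring coding genes, 32 of them on chromosome V. The longest run, 9 genes from nhr-185 to nhr-124, had no member with enough counts to be tested. A run of 6 on chromosome V, nhr-99, nhr-55, nhr-130, nhr-212, nhr-211 and nhr-106, was untested in gonads, while all 6 were tested in worms. There nhr-130, nhr-212 and nhr-211 rose in XO worms, nhr-55 fell and nhr-99 and nhr-106 did not pass. Over all genes tested in worms 29.2% rose and 24.2% fell. The call of nhr-211 was lost when some single libraries were left out and with DESeq2. Transcripts of nhr-55 were at 2.2, 1.69 and 3.16 CPM in XO worms and at 7.18, 3.97 and 5.46 CPM in XX worms. Those of its neighbour nhr-130 were at 8.34, 7.38 and 8.21 CPM in XO worms and at 3.27, 5.22 and 4.44 CPM in XX worms (0.80, SE 0.19, adjusted p = 0.00255). Neighbours in 1 run thus differed in opposite directions. Reads aligned to several places, as those of close copies may be, were not counted for any gene. Their share was 4.99% to 8.8% in gonad libraries, 12.8% to 14.2% in XO worm and 17.6% to 20.3% in XX worm libraries.

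In the same annotation 47 members overlapped another coding gene, 33 of them on the other strand. Among the named genes with counts these were nhr-4, nhr-6, nhr-8, nhr-17, nhr-20, nhr-40, nhr-50, nhr-57, nhr-64, nhr-66, nhr-85, nhr-86, nhr-91, nhr-136, nhr-180 and nhr-232, whose counts may include reads of the overlapping gene.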

How the data were processed

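The authors deposited raw read counts per gene for each of the 12 libraries, and rows for reads without a gene, ambiguous reads and reads aligned to several places (4.99% to 20.3% of all rows' counts) were left out of library sizes. Per the labels' protocols, messenger RNA was selected with oligo(dT) and libraries were made with dUTP. Tools named without a role in the submitters' processing notes are HTSeq, TopHat2 2.0.12, Cufflinks 2.2.0, CASAVA 1.8 and SAMtools 1.2; the roles, the strand setting and the build are not given in the sources used here. Sequence names of 19899 of 20389 rows were matched to WBcel235 genes. XO and XX were compared within tissue with edgeR 4.0.16 in R 4.3.3 (TMM, minimum count 10, robust quasi-likelihood F test, Benjamini-Hochberg adjustment over all genes, threshold 0.05), and tissues and the interaction over all 12 libraries. The fits were run on simulated data with less spread than the gonad libraries showed. Changes were planted only in genes well above the filter, so that run does not check gonad calls of low-count members. CPM used TMM factors over the 12 libraries, and RPKM divided CPM by exonic length.

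The members and lists were chosen with earlier results of these data known. Named members were those with the largest passing changes without overlap, the smallest interaction p, the highest RPKM, or a place in a role list. Alternatives were DESeq2 1.42.0, its size factors in edgeR, no filter, a minimum count of 5, all 12 libraries in the fit, a replicate block, leaving out each library and, added after seeing the data, library size only.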

Additional observations from a re-analysis of the deposited data

Results flagged for a closer look

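Flagged were 9 named members, those with the smallest interaction p or with opposite calls in gonads and whole worms. Their difference between XO and XX animals differed between gonads and whole worms in the interaction term, given as the gonad log2 difference minus the whole worm one. On the X chromosome these were nhr-48 (-2.06), nhr-1 (-2.16), nhr-40 (-4.39), nhr-71 (-1.81) and nhr-28 (-4.38). On autosomes they were nhr-97 (-2.23), nhr-88 (-2.20), nhr-131 (-3.0) and nhr-57 (-2.83). Further named members also passed the interaction, among them nhr-17 (-6.16, with 3 counts in XO gonads) and nhr-8 (2.70).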

How the results depend on the processing

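Counts of members past the threshold moved with some settings, and the cause was not tested. Members higher in XO gonads numbered 1; they were 2 with DESeq2's size factors in edgeR, with library size only, with no filter and with DESeq2, 3 with a minimum count of 5 and 7 with all 12 libraries in the fit. Members higher in XO worms numbered 34, but 56 with library size only and 20 with DESeq2. The interaction had 1 higher member, but 2 with DESeq2's size factors or no filter and 3 with DESeq2. Members higher in gonads than in worms went from 8 to 5 with those size factors and 4 with DESeq2 in XX animals, and from 6 to 3 with either in XO animals. The difference of nhr-49 in worms turned from -0.04 to 0.19 with library size only. Leaving out 1 library gave 1 to 3 higher and 33 to 45 lower in XO gonads, 23 to 31 higher and 20 to 25 lower in XO worms, and 1 to 3 higher and 29 to 44 lower in the interaction. In XX animals it gave 5 to 9 higher and 115 to 125 lower in gonads than in worms, and in XO animals 4 to 7 and 131 to 138. Same-numbered libraries, taken as deviations from their group means, had correlations of -0.46 to 0.06. Differently numbered XO and XX gonad libraries had -0.34 to 0.46. Deviations from means of 3 libraries are tied to each other, so these values cannot settle whether replicate numbers pair the libraries. With the replicate block 1 member was higher and 31 lower in XO gonads, 29 and 21 in XO worms, 1 and 39 in the interaction, and 7 and 6 higher in gonads than in worms of XX and XO animals. The block ended the gonad calls of nhr-13, nhr-57, nhr-78 and nhr-135 among others. Low counts left 65 of 268 members testable in gonads and 142 in whole worms, at gene count totals of 11911364 to 16140259 and 7912618 to 15363288.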
